A study of Mus musculus with 6 samples.

Results

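Melanogenesis genes are the genes that pigment cells use to make, fill and move melanosomes, the organelles that hold melanin. The 10 genes described here were taken by symbol from the deposited count table, in which they were 10 of 23420 genes: the enzymes Tyr, Tyrp1 and Dct, the melanosome matrix and maturation genes Pmel and Mlana, the transporters Slc45a2, Slc24a5 and Oca2, the transcription factor Mitf and the transport adaptor Mlph. All 10 passed the filter on low counts in each comparison. The study sequenced retinal RNA of mice in 3 groups of 2 libraries to ask how the antibiotic minocycline changes gene expression in a retina damaged by light. According to the labels, all mice were of strain CD1, with no genotype, age or sex given. Control retinas came from mice with no treatment. The light group was exposed to 10000 lux for 1 h and its retinas were taken 4 days later. The light + minocycline group had the same exposure and received 45 mg/kg of minocycline daily over 4 days. The study's methods name BALB/cJ mice of both sexes, for which they give an age range, and another light intensity. In the methods, minocycline injections began the day before light, with more than 1 dose a day at first. The methods call the 2 libraries of a group biological replicates without saying how many animals each one holds. Mice of both strains are albino. No group received minocycline without light, so minocycline was compared only on the background of light exposure. Both minocycline columns carry the same header, and they are called minocycline A and minocycline B.

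In pigment cells, tyrosinase oxidises tyrosine at the start of melanin synthesis, and the products of Tyrp1 and Dct act on later intermediates of eumelanin. Albino laboratory mice carry a missense allele of Tyr, so that the enzyme is inactive while its RNA, and the RNA of the other melanosome genes, is still made. In the eye these genes are used by the retinal pigment epithelium (RPE), by the pigmented epithelia of the iris and ciliary body, and by melanocytes of the choroid and iris stroma, whereas the neural retina itself makes no melanin.

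In sum, most of these genes stood at low levels in control and light-exposed retinas and at much higher levels in both libraries with minocycline. Mitf and Mlph changed least against light, whereas against control Mitf changed least and Mlph did not stand apart. No gene passed the test after adjustment in either comparison with minocycline. The summed level of the 10 genes was 29.1 CPM in control 1 (read counts scaled to a common library size by the TMM method), 90.0 CPM in control 2, 42.6 CPM in light 1 and 67.7 CPM in light 2. It was 337.0 CPM in minocycline A and 1473 CPM in minocycline B. The libraries without minocycline thus overlapped between groups, while both minocycline libraries lay above them and differed 4.37-fold from each other. In bulk tissue, a lower number of cells of a type and less RNA per cell cannot be told apart.

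Library totals ran from 15205930 to 22856922 counts, and 3 counts corresponded to 0.131 to 0.213 CPM. Some libraries stood apart. Control 1 held 77778 Xist counts and 11 counts of Y-linked genes, against 25 to 188 Xist counts and 6532 to 12858 Y-linked counts in the other 5 libraries. This is the pattern of female tissue in control 1 and of male tissue in the others, so the control group mixed the sexes, and the part of sex in the comparisons with control was not tested. Control 1 was also the library with the lowest level of 8 of the 10 genes. Light 1 held 126.1 CPM of lens genes, against 0.853 to 13.8 CPM elsewhere. Results are therefore also given without single libraries.

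The promoters of several of these genes hold the M-box, an E-box variant that MITF is known to bind. Windows of 250 bases before to 50 bases after the RefSeq start site (GRCm38.p6) were at hand for 7 of the 10 genes, and they were searched on both strands for TCATGTG and for TCACGTG, each of which contains a shorter E-box, CATGTG or CACGTG. A match of 7 letters lay in the windows of 5 genes, and none lay in the window of Oca2 or in the 3 windows of Mitf. Of all 32851 windows in the table, 7.40% held at least 1 of the 2 motifs. The stretches around the matches are shown because the 3 enzyme genes share more than the motif. They are written 5′ to 3′ on the strand of the gene, with the match in capitals.
Tyr: gaaaaagttagTCATGTGctttgcagaaga
Tyrp1: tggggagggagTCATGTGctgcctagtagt
Dct: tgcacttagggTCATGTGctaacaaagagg
Slc24a5: aggagactgctCACATGAttcagcataagt
Mlph: caggagtagccCACGTGAtctgagccgcaa
They lie at chr7:87493516-87493545 on the minus strand (Tyr), chr4:80834155-80834184 on the plus strand (Tyrp1), chr14:118052379-118052408 on the minus strand (Dct), chr2:125068103-125068132 on the plus strand (Slc24a5) and chr1:90915041-90915070 on the plus strand (Mlph). The first base of the match lay 22 bases before the start site in Tyr, 47 in Tyrp1, 151 in Dct, 13 in Slc24a5 and 48 in Mlph. For Tyrp1 the RefSeq start site lies inside the gene as GENCODE draws it, so that its stretch falls within the gene coordinates given below. In Slc24a5 and Mlph the motif reads on the opposite strand, and Mlph was the one gene with TCACGTG. The window of Dct held 2 matches, of which 1 is shown. Tyr and Tyrp1 shared the run AGTCATGTGCT of 11 letters, found in 7 of the 32851 windows, and GTCATGTGCT of 10 letters was common to Tyr, Tyrp1 and Dct and was found in 61 windows. A match describes the letters only, and binding was not measured.

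Among the enzymes, Dct had the highest counts. Dct (chr14:118012790-118052244, minus strand, GRCm38), which encodes dopachrome tautomerase, stood at 11.1 CPM in control 1, 41.4 in control 2, 18.8 in light 1, 27.9 in light 2, 149 in minocycline A and 655 in minocycline B. Tyrp1 (chr4:80834123-80851719, plus strand), encoding a tyrosinase-related enzyme that stabilises tyrosinase, stood at 3.27, 14.9, 6.43, 8.93, 67.7 and 310.4 CPM in the same order. Tyr (chr7:87424771-87493512, minus strand) stood at 0.427, 1.83, 0.701, 1.05, 10.3 and 48.7 CPM, from counts of 6, 26, 12, 22, 237 and 918. In each enzyme gene the light libraries lay between the 2 controls, and both minocycline libraries lay above all others. The ratio of Dct to Tyrp1 in CPM per kilobase of exon was 1.34 to 1.63 in the 4 libraries without minocycline and at most 1.05 with it, lower in both minocycline libraries than in the other 4.

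Pmel (chr10:128704195-128720238, plus strand) encodes the amyloid protein on whose fibrils melanin is laid down. It stood at 0.924 CPM in control 1, 13.0 in control 2, 2.57 in light 1, 6.08 in light 2, 72.1 in minocycline A and 340.5 in minocycline B, from 13, 184, 44, 128, 1656 and 6424 counts. It had the widest range of the 9 genes seen in every library, 368-fold from control 1 to minocycline B, and the 2 controls alone differed 14.0-fold. Its exons overlap those of Cdk2 and Dgka on the opposite strand. These neighbours stood at 3.56 to 7.13 CPM and 7.13 to 9.79 CPM over the 6 libraries and did not follow Pmel, but whether reads were counted by strand is not stated in the sources used here. Mlana (chr19:29697824-29708634, plus strand) encodes a small melanosome membrane protein that binds PMEL. It was close to the limit of counting without minocycline, with 1, 11, 6 and 16 counts in control 1, control 2, light 1 and light 2, and reached 93 counts (4.05 CPM) in minocycline A and 470 counts (24.9 CPM) in minocycline B.

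The transporters had low counts in the libraries without minocycline. Slc45a2 (chr15:11000721-11029233, plus strand), a proton-coupled carrier linked to melanosome pH, had 0, 11, 5 and 14 counts in control 1, control 2, light 1 and light 2, and 63 and 146 counts (2.74 and 7.74 CPM) with minocycline. For control 1, the count of 0 allows a level of up to 0.213 CPM. Slc24a5 (chr2:125068124-125088677, plus strand), a potassium-dependent sodium and calcium exchanger of the melanosome pathway, stood at 0.498, 1.90, 0.935, 2.61, 6.18 and 26.7 CPM. Its exons overlap Myef2 on the opposite strand, which kept to 93.9 to 116.4 CPM in the 6 libraries. Oca2 (chr7:56239760-56536518, plus strand), linked to a melanosomal anion conductance that raises luminal pH, stood at 0.853, 2.40, 0.760, 1.66, 4.44 and 13.4 CPM. For each transporter, control and light libraries overlapped and the minocycline libraries were higher than the other 4.

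The remaining members, Mitf and Mlph, did not share this profile in full. Mitf (chr6:97807052-98021349, plus strand), the transcription factor that directs the pigment cell programme, was nearly level without minocycline, at 11.6 and 12.1 CPM in the controls and 9.23 and 11.2 CPM in the light libraries, and stood at 14.9 and 28.7 CPM in minocycline A and B. From its lowest to its highest library it changed 3.11-fold, the narrowest range of the 9 genes seen in every library. Mlph (chr1:90915085-90951142, plus strand) encodes melanophilin, which links RAB27A on melanosomes to myosin Va. It stood at 0.356 and 0.986 CPM in the controls, 2.57 and 6.84 CPM in the light libraries, and 5.66 and 17.8 CPM with minocycline. It was the one gene whose light libraries lay wholly above the controls, and the one whose light and minocycline libraries overlapped.

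**Figure D1:**
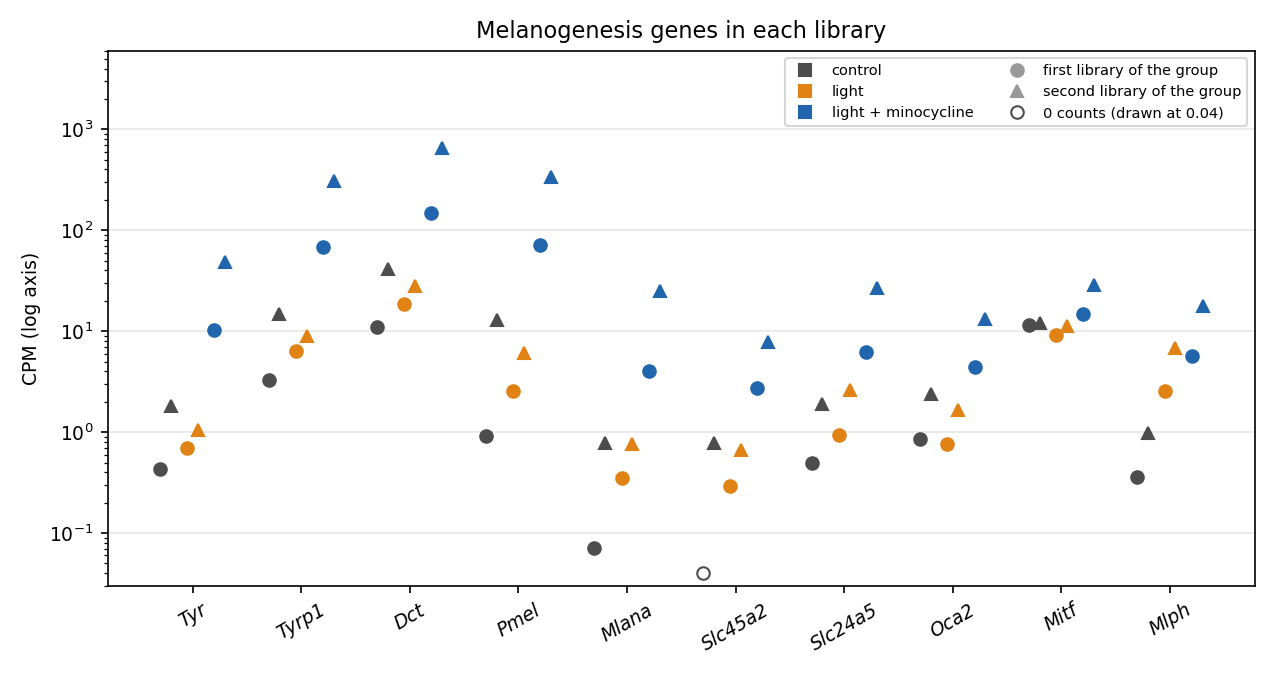
CPM of the 10 melanogenesis genes (log axis) in each of the 6 libraries, coloured by group, with circles for the first and triangles for the second library of a group and an open symbol for the 0 counts of Slc45a2 in control 1. Both minocycline libraries lay above both light libraries for 9 genes, at 2.74 CPM (Slc45a2) to 655 CPM (Dct), as they did for 26.0% of all genes tested. For Mlph, light 2 at 6.84 CPM lay above minocycline A at 5.66 CPM.

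Per kilobase of exon, the makeup of these transcripts also differed between libraries. Dct had the highest level per kilobase in each of the 4 libraries without minocycline and Pmel had it in both minocycline libraries. The share of Pmel in the summed CPM per kilobase was 6.80% and 24.9% in the controls, 11.6% and 16.3% in the light libraries and 33.4% and 34.9% with minocycline. The share of Dct changed little, from 26.1% to 32.9% over the 6 libraries. Mitf took 31.5% and 8.60% in the controls, 15.4% and 11.1% in the light libraries, and 2.55% and 1.09% with minocycline. Mlph took 4.96% and 7.86% in the light libraries and 0.780% to 1.12% in the other 4. The minocycline libraries, which differed 4.37-fold in summed level, thus had nearly the same makeup, whereas the controls did not.

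**Figure D2:**
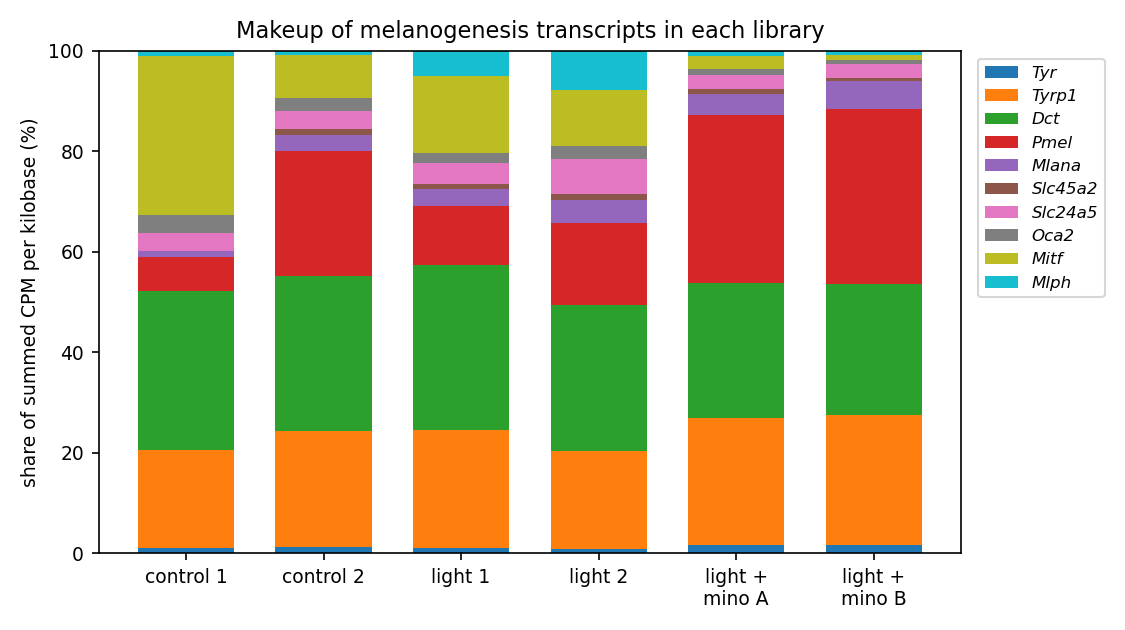
Share of each gene in the summed CPM per kilobase of exon of the 10 genes (%), as 1 stacked bar per library. Pmel (red) made up 33.4% and 34.9% with minocycline against 6.80% to 24.9% in the other libraries, and Mitf (olive) had its smallest shares there, 2.55% and 1.09%.

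The spread within groups was wide and ran the same way for all members. In each group, 1 library was higher for all 10 genes: control 2 exceeded control 1 by 1.05-fold (Mitf) to 14.0-fold (Pmel) in the 9 genes with a count in control 1 (Slc45a2 had 0 against 11 counts), light 2 exceeded light 1 by 1.21-fold (Mitf) to 2.79-fold (Slc24a5), and minocycline B exceeded minocycline A by 1.93-fold (Mitf) to 6.15-fold (Mlana). The exact 95% interval of this ratio, which covers counting error only, lay above 1 for 8 genes in the controls, 6 genes in the light group and all 10 genes with minocycline. The shares of all genes with such ratios or intervals were not computed, so these counts do not set the members apart. Over the 6 libraries, Pearson's r of log2 CPM between members ranged from 0.64 to 1.00 over 45 pairs, with a median of 0.97. Leaving out Mitf and Mlph, the 28 pairs ranged from 0.94 to 1.00, while the 9 pairs with Mlph ranged from 0.64 (with Mitf) to 0.87. Genes of a library share its depth and treatment, so these coefficients describe the 6 libraries only, and no test was made of them.

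Light exposure alone left the melanogenesis genes, other than Mlph, within the range of the control libraries or close to it. Mlph rose after light (log2 fold change 2.81 ± 0.62 SE, Benjamini-Hochberg adjusted p = 0.0252 in edgeR's quasi-likelihood test), from 0.671 ± 0.446 to 4.71 ± 3.02 CPM (mean ± SD, n = 2). It was the 1 of 10 members called higher, which took both an adjusted p below 0.05 and a fitted change of 2 or more on the log2 scale, where 2.89% of the 14349 genes tested were called higher. The other 9 genes had log2 fold changes of -0.67 (Pmel) to 0.58 (Slc24a5) and adjusted p values of 0.597 to 0.917 in the same test. The median over the 10 genes was -0.19, against 0.00 over all genes. The order of the group means split, with 6 genes lower and 4 genes higher in light than in control, and 8 of the 10 genes overlapped between the groups. Mlph was higher in both light libraries, as were 30.6% of all genes, and Mitf was lower in both, as were 30.3%.

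In fits without 1 library the call of Mlph was lost 3 times. Its log2 fold change was 2.26 without control 1 (adjusted p = 0.146), 3.71 without control 2 (adjusted p = 0.141) and 1.93 without light 2 (adjusted p = 0.0610) in edgeR's quasi-likelihood test, none of which is a call. Calls were lost over the whole table in these fits, where 0.0209%, 0.0697% and 1.69% of all genes were called higher. Without light 1, Mlph (3.35) was called, as were 4.40% of all genes. The call was also lost with all 6 libraries in 1 fit (log2 fold change 2.81, adjusted p = 0.0831 in edgeR's quasi-likelihood test, all genes: 2.90%) and with shrunken DESeq2 fold changes (1.29, all genes: 0.537%). Signs of the other genes turned in the same fits: without control 2, the log2 fold change of Pmel was 2.23, of Tyrp1 1.24, of Dct 1.08, of Tyr 1.04 and of Oca2 0.53. The median of the 10 genes went from -0.19 to 1.54 without control 2 and to -0.74 without control 1. Markers of microglia, the resident macrophages of the retina, were also higher in both light libraries than in the controls, but unlike Mlph they were lower with minocycline than in the light libraries. The summed level of 5 such genes was 17.3 and 18.4 CPM in the controls, 80.9 and 220.3 CPM in the light libraries and 31.9 and 14.4 CPM with minocycline, and 3 of the 5 were called higher after light. Their part in the level of Mlph was not tested, and minocycline B, with the highest Mlph at 17.8 CPM, had the lowest microglial sum.

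With minocycline, all 10 genes had higher mean levels than in light-exposed retinas without it, yet none passed the test after adjustment. The matrix gene Pmel had the largest log2 fold change, 5.57 ± 0.95 SE (Benjamini-Hochberg adjusted p = 0.0755 in edgeR's quasi-likelihood test), with means of 206 ± 190 CPM against 4.33 ± 2.48 CPM (SD, n = 2). The enzymes followed at 5.07 ± 0.92 for Tyr, 4.64 ± 0.83 for Tyrp1 and 4.13 ± 0.78 for Dct, with Mlana at 4.68 ± 1.07. The transporters lay lower, at 3.42 ± 0.67 for Slc45a2, 3.21 ± 0.88 for Slc24a5 and 2.87 ± 0.66 for Oca2, and Mlph (1.32 ± 0.70) and Mitf (1.11 ± 0.33) came last. The adjusted p ranged from 0.0725 (Slc45a2) to 0.355 (Mlph) in edgeR's quasi-likelihood test. The SD of the 2 minocycline libraries was 0.449 to 1.02 times their mean, so the difference between them was of the order of the level itself.

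None of the 10 genes was called in edgeR, where 0.0136% of the 14750 genes tested were called higher. At an unadjusted p under 0.05, 9 of 10 members were higher, as were 9.04% of all genes, and 8 of 10 were so with a log2 fold change of at least 2, as were 0.942% of all genes. DESeq2 without shrinkage called the same 8 genes higher, which leave out Mitf and Mlph, along with 0.719% of all genes. DESeq2 with shrunken fold changes called 0 of the 10 and 0.0339% of all genes higher. For 9 of 10 members both minocycline libraries lay above both light libraries, against 26.0% of all genes, and the exception was Mlph. The median log2 fold change was 3.78, against 0.01 over all genes. Without minocycline B, the higher library, the median was 2.57, and 0 of the 10 members and 0% of all genes were called higher. Without minocycline A it was 4.42 and 6 genes were called higher (Dct, Slc45a2, Mlana, Tyrp1, Oca2 and Tyr), as were 0.658% of all genes. Each sign stayed positive in all these fits.

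Against the controls, the minocycline libraries were higher for 10 of 10 genes with no overlap, where 15.9% of the 14181 genes tested showed this. This comparison and the previous one share the minocycline libraries, so their values stand side by side and do not support each other. The log2 fold changes were 5.11 ± 1.42 SE for Mlana, 4.93 ± 1.87 for Pmel, 4.73 ± 1.18 for Tyr, 4.42 ± 1.42 for Tyrp1, 4.15 ± 0.75 for Mlph, 3.97 ± 1.30 for Dct, 3.80 ± 1.02 for Slc24a5, 3.76 ± 1.06 for Slc45a2, 2.48 ± 0.70 for Oca2 and 0.92 ± 0.31 for Mitf. None was called, and the adjusted p in edgeR's quasi-likelihood test ran from 0.169 (Mlph) to 0.742 (Pmel), where 0.134% of all genes were called higher. At an unadjusted p under 0.05, 7 genes were higher (all genes: 5.39%), 6 of them with a log2 fold change of at least 2 (all genes: 1.23%). DESeq2 without shrinkage called 3 higher, namely Mlph, Oca2 and Tyr (all genes: 0.705%).

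The wide gap between the 2 controls weighed on this comparison. The median log2 fold change of 4.06 became 5.56 without control 2 and 3.45 without control 1, with 0 of the 10 genes called in each of those fits, where 0.0423% and 0.0141% of all genes were called higher. Without minocycline A it was 4.71 with 6 genes called higher (Mlph, Slc45a2, Mlana, Slc24a5, Oca2 and Tyr), where 1.59% of all genes were. Without minocycline B it was 2.85 with 5 called higher, the same genes less Oca2, where 0.677% of all genes were. In order of group means, light + minocycline came highest for all 10 genes, and control and light, the neighbours below it, overlapped in 8 of them.

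**Figure D3:**
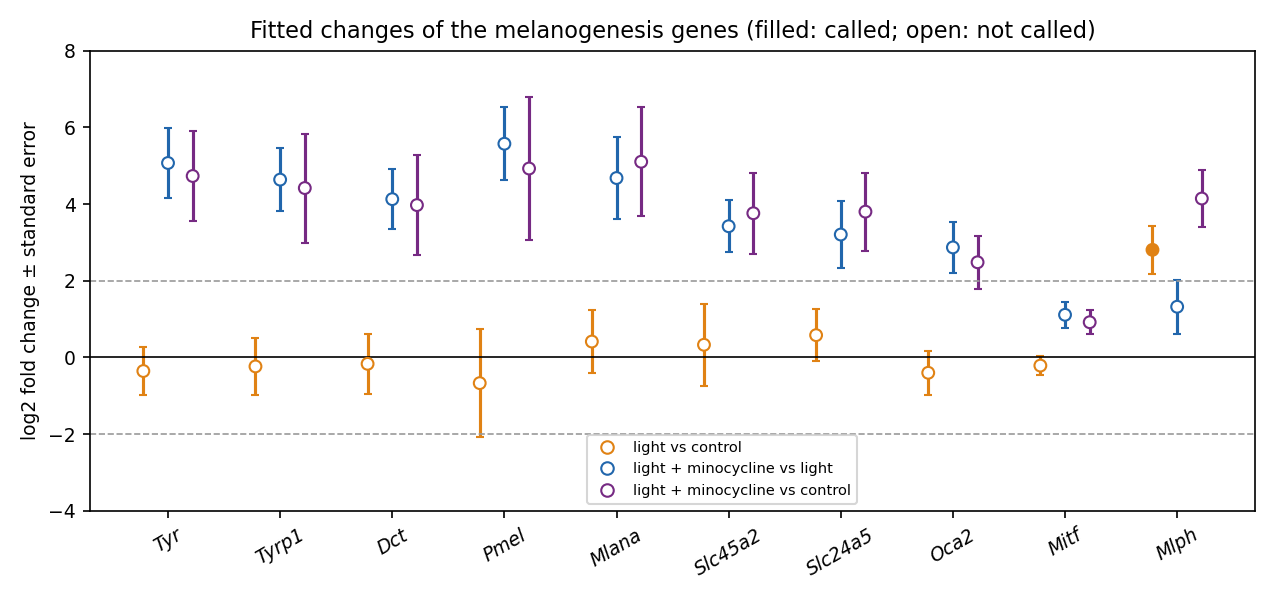
Fitted log2 fold change of each melanogenesis gene with its standard error (edgeR, 2 libraries per group) in the 3 comparisons, with filled points for calls and dashed lines at a log2 fold change of 2 in either direction. The only filled point is Mlph after light (2.81), and with minocycline 8 genes lie above 2 against light and 9 against control, as do 0.983% and 1.32% of all genes tested.

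Other genes of the pigment pathway mostly did not follow the 10 members. Of 53 genes listed for pigmentation, 52 were in the table, in 6 lists, and 47, 51 and 49 of them were tested for light against control, light + minocycline against light and light + minocycline against control. Their median log2 fold changes were 0.13, 0.01 and 0.17 in this order, against -0.19, 3.78 and 4.06 for the 10 members. After light, 1 of the 47 was called higher, a share no larger than the 2.89% of all genes. This gene, Rab32, a small GTPase that sorts cargo to melanosomes and other lysosome-related organelles, rose from 0.427 and 0.423 CPM in the controls to 2.10 and 6.41 CPM (log2 fold change 3.32 ± 0.63 SE, adjusted p = 0.0162, edgeR quasi-likelihood test). With minocycline Rab32 stood at 0.914 and 1.17 CPM. Like Mlph it was high in the light libraries, where microglial markers were high, and their part in its level was not tested. In the minocycline comparisons 0 of 51 and 0 of 49 were called by edgeR.

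By list, the biogenesis and cargo sorting genes (20 tested) had median log2 fold changes of 0.13 after light, -0.04 with minocycline against light and 0.13 against control. Apart from Rab32 none of them was called. The melanosome membrane and ion transport genes (5, 6 and 6 tested) had medians of 0.50, -0.39 and -0.02. Their most abundant members were Atp7a, the copper pump that loads tyrosinase, at 39.4 to 58.5 CPM, and the exchanger Slc24a4 at 25.1 to 52.6 CPM. The melanosome movement genes (6 tested) had medians of 0.10, 0.45 and 0.28. Among them Myo5a, the motor that melanophilin binds, kept to 198 to 268 CPM, whereas Myrip, which links RAB27A to myosin VIIa, stood at 104 CPM in both controls, 64.6 and 64.4 CPM in the light libraries, and 77.0 and 110 CPM with minocycline.

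The pigment cell transcription factors (7, 9 and 7 tested) had medians of 0.08, 0.10 and 0.13, led in level by Otx2, which photoreceptors, bipolar cells and RPE use, at 177 to 244 CPM, and by the MITF relative Tfe3 at 36.9 to 44.4 CPM. The ligands and receptors (4, 5 and 5 tested) had medians of 0.31, 0.48 and 0.76. Mc1r, the melanocortin receptor, kept to 11.9 to 18.9 CPM and Kitl, the ligand of KIT, to 8.52 to 23.3 CPM. The last list, other pigment cell genes (5 tested), had medians of 0.56, -0.27 and 2.92. Trpm1, a channel of melanocytes and of ON bipolar cells, stood at 252 and 314 CPM in the controls, 483 and 744 CPM after light and 268 and 318 CPM with minocycline. Gpnmb, a relative of Pmel that macrophages also make, stood at 7.68 and 16.2 CPM, 136 and 588 CPM, and 57.0 and 284 CPM. By the adjusted p alone, 6 of the 47 genes passed after light (all genes: 11.3%), 5 higher (Ednrb, Myo7a, Rab32, Slc7a11 and Trpm1) and 1 lower (Myrip). Those not named by the rule (Ednrb, Myo7a and Slc7a11) were named after their values were seen.

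Markers of the cell types that could carry these transcripts were summed in each library. RPE markers (7 genes, with Best1 at 0 or 1 count in every library) stood at 102 and 251 CPM in the controls, 119 and 171 CPM in the light libraries and 94.3 and 128 CPM with minocycline. None of the 6 tested was called in any comparison, and their median log2 fold changes were -0.56 after light, -0.39 with minocycline against light and -0.73 against control. The summed level of the 10 melanogenesis genes divided by that of the RPE markers was 0.284 to 0.396 in the 4 libraries without minocycline, and 3.57 and 11.5 with it. Rpe65, the isomerase that defines the RPE, stood at 18.7 and 31.9 CPM with minocycline, within its range of 19.6 to 68.1 CPM elsewhere but for minocycline A, which lay just below. The members thus did not keep a fixed ratio to RPE markers.

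Markers of neural crest melanocytes (5 genes) moved far less than the members. They summed to 24.2 and 27.9 CPM in the controls, 30.5 and 28.1 CPM in the light libraries and 33.1 and 43.5 CPM with minocycline, with medians of -0.28, 0.73 and 0.75 over the 3, 4 and 4 genes tested and none called. Their defining factors were near the limit of counting. Sox10 had 11, 7, 6 and 10 counts without minocycline and 17 and 36 with it, and Pax3 had 0, 1, 0 and 0 counts and then 2 and 13. Non-pigmented ciliary epithelium (3 genes) summed to 53.7 and 58.3 CPM with minocycline and to 62.9 to 116 CPM without it, most of which was Col9a1. Its median log2 fold change ran against this sum, at 2.04 against light and 2.22 against control, with none of its genes called. Schwann cell markers (4 genes) summed to 32.1 to 38.2 CPM.

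Smooth muscle markers followed the melanogenesis genes most closely. The 8 genes summed to 9.53 and 22.8 CPM in the controls, 14.0 and 15.2 CPM in the light libraries and 78.4 and 363 CPM with minocycline. The melanogenesis sum was 3.04 to 4.46 times the smooth muscle sum in all 6 libraries, a 1.47-fold range, although the melanogenesis sum changed 50.7-fold and the smooth muscle sum 38.1-fold over them. Acta2, smooth muscle actin, stood at 1.21, 5.57, 2.75 and 2.61 CPM without minocycline and at 23.6 and 136 CPM with it. Abundant genes weigh most in such sums, and not every marker kept this ratio. Lmod1 of the same list stood at 0.760 to 1.55 CPM without minocycline and at 2.66 and 4.29 CPM with it. The median log2 fold changes of the smooth muscle list were -0.32, 3.62 and 3.32 in the 3 comparisons with 0 called (6, 7 and 7 tested), beside -0.19, 3.78 and 4.06 for the members.

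Stromal and corneal markers were also higher with minocycline. Ocular stroma (8 genes) summed to 13.1 to 18.7 CPM in the 4 libraries without minocycline and to 48.1 and 189 CPM with it, and the ratio of the melanogenesis sum to it ran from 2.22 to 7.79. Corneal epithelium (6 genes) summed to 2.11 to 14.8 CPM without and to 191 and 270 CPM with minocycline. Here the desmosomal gene Dsp rose against light (log2 fold change 4.78 ± 0.47 SE, adjusted p = 0.0444, edgeR quasi-likelihood test), and Dsp and Dsg1a were called against control. The corneal sum differed 1.42-fold between minocycline A and B, and the melanogenesis sum 4.37-fold. Lens markers (6 genes) peaked in light 1. Rod markers (8 genes, none called) summed to 96899 and 76411 CPM in the controls, 57194 and 40578 CPM in the light libraries and 82424 and 89714 CPM with minocycline. The part of these other cells in the levels of the melanogenesis genes was not tested.

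**Figure D4:**
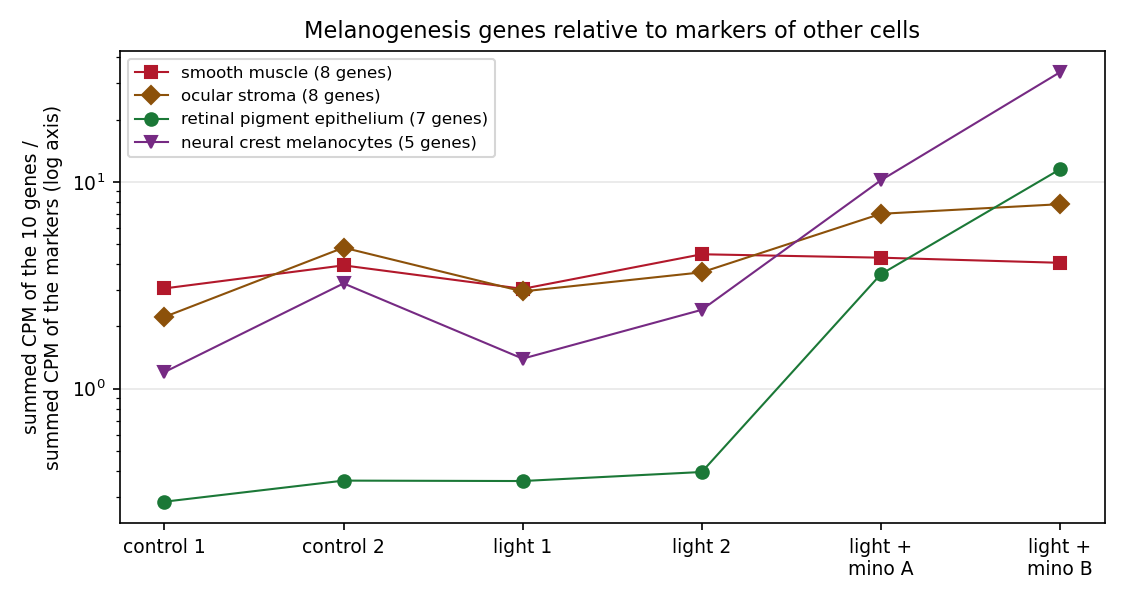
Summed CPM of the 10 melanogenesis genes divided by the summed CPM of 4 marker lists (log axis) in each library, with lines that only join the points of a list. The ratio to smooth muscle stayed within 3.04 to 4.46, the ratio to ocular stroma ran from 2.22 to 7.79, and the ratios to RPE and to neural crest melanocyte markers were highest in minocycline B, at 11.5 and 33.9.

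The genes most like the 10 members were found by Pearson's r between a gene's log2 CPM and the mean standardised log2 CPM of the members, over 6 libraries and 1165 genes that varied by at least 2 on the log2 scale. The 10 closest were Sfrp1, Gm4736, Tgfbr3, Islr, Gja1, Bace2, Rbm24, Myh11, Prpmp5 and Acta2, with r from 0.98 to 1.00. Sfrp1, a secreted WNT antagonist, stood at 2.28, 4.30, 2.75, 3.99, 7.97 and 20.7 CPM in control 1, control 2, light 1, light 2, minocycline A and minocycline B. Gja1, the gap junction protein connexin 43, stood at 3.27, 6.90, 4.56, 6.32, 23.8 and 111 CPM in the same order. Of the 10, Myh11 and Acta2 are in the smooth muscle list, Islr in the stromal list and Bace2, a protease that cleaves PMEL, in the pigment lists. The median r was 0.97 for the smooth muscle list (7 genes), 0.93 for ocular stroma (8 genes), 0.82 for corneal epithelium (5 genes), 0.66 for neural crest melanocytes (4 genes) and -0.15 for RPE (6 genes). These values describe 6 libraries and carry no test.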

How the data were processed

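The authors prepared stranded mRNA libraries from total retinal RNA, aligned reads to mm10 with STAR in the RNA Express workflow and deposited counts per gene. The counts are whole numbers that sum to different totals, without normalization, although the methods call them normalized. The annotation, the versions of STAR and DESeq2 and the use of strand in counting are not given in the sources used here, and no value column was left out (0 unused). Each pair of groups was fitted in R 4.3.3 by the robust quasi-likelihood method of edgeR 4.0.16, after filterByExpr and TMM scaling, with Benjamini-Hochberg adjustment over the table. Genes were called at an adjusted p below 0.05 where the log2 fold change was also 2 or more in size. Intervals and floors of 3 counts cover counting error only. Log2 CPM used a prior count of 2, and exon lengths and coordinates came from GENCODE M21 (GRCm38). The fit was tested on simulated data. DESeq2 1.42.0, other scalings, filters, call rules, a replicate block and fits without 1 library were the alternatives. The members and lists (6 of pathway genes, 10 of cell type markers) were chosen with earlier results of these data known. Named were all members, called pathway genes or else the 2 most abundant of a list, and the 10 genes most like the members. P-values measure the spread between libraries, moderated in the fit by the spread of all genes, and no wider source of variation.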

Additional observations from a re-analysis of the deposited data

How the results depend on the processing

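Each group held 2 libraries, and Tyr, Mlana and Slc45a2 had few counts in some of them. After light, the 1 called gene (Mlph) became 0 with at least 10 counts in every library (5 genes tested, not Mlph), with shrunken DESeq2 fold changes and with all 6 libraries in 1 fit, and 0 to 1 without single libraries. With minocycline against light, 0 became 1 (Slc45a2) with no filter (72 of 18453 genes called higher), 8 (106 of 14750) in DESeq2 without shrinkage, 8 (139 of 14750) by unadjusted p and 0 to 6 without single libraries. Against control, 0 became 3 (100 of 14181) in DESeq2 without shrinkage, 6 (174 of 14181) by unadjusted p and 0 to 6 without single libraries. Fits without 1 library used the other 3, the lone library being assumed to vary like the other group. The cause of these shifts was not tested.

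Signs turned only after light, for values that were not called. With total library size, which moved the median of all genes to 0.24, Dct was 0.073, Tyrp1 0.0040 and Mitf 0.027. Without single libraries the log2 fold change ran from -1.57 to 2.23 for Pmel, -0.82 to 1.08 for Dct, -0.95 to 1.24 for Tyrp1, -1.09 to 0.53 for Oca2, -1.05 to 1.04 for Tyr, -0.65 to 6.11 for Slc45a2 (the upper end against control 1 alone, at 0 counts, is no bound), -0.44 to 2.88 for Mlana and -0.35 to 1.84 for Slc24a5. With the replicate number as a block, Dct was 0.061, Tyrp1 0.038 and 1 gene (Mlph) was called, as without it. Control and light libraries of the same number did not deviate together over all genes (r = -0.0079 over 14349 genes). With 2 pairs, this value cannot tell whether such libraries share more than a number. With minocycline, no paired analysis was possible because both columns bear the same header. Over all genes, calls were 419 after light (3 to 1624 over the alternatives), 7 with minocycline against light (0 to 500) and 19 against control (0 to 228).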

Other observations

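Of the 51 other pigment genes tested, 15 were higher in both minocycline libraries than in both light libraries, as were 26.0% of all genes. A log2 fold change of at least 2 against light was reached by 5 of the 51 (all genes: 0.983%), of which all but Bace2 were named after their values were seen. Edn3, which encodes a ligand of the endothelin receptor B on melanocytes, had 2 and 13 counts in the controls, 6 in each light library, and 138 and 672 counts with minocycline, a log2 fold change of 6.04 ± 1.13 SE against light (adjusted p = 0.0844, edgeR quasi-likelihood test). Bace2 had 6, 26, 10 and 22 counts without minocycline and 95 and 428 with it (log2 fold change against light 4.03). Tspan10, a tetraspanin, had 18, 34, 19 and 30 counts and then 123 and 411 (3.43). Rab38, a GTPase that sorts tyrosinase and Tyrp1 to melanosomes, had 16, 11, 14 and 26 counts and then 54 and 159 (2.39), and Gpr143, the melanosomal receptor of ocular albinism, had 4, 8, 0 and 9 counts and then 16 and 52 (2.89). None of these 5 genes was called by edgeR. In each of them both minocycline libraries were above the other 4, which the choice of the genes by their fold change made likely.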
